A study of Danio rerio with 9 samples.

Results

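The hox genes of zebrafish were examined in single primordial germ cells (PGCs), the precursors of eggs and sperm. Members were all genes whose symbol begins with hox, a cluster letter from a to d and a group number, which gave 48 of the 32266 genes in the expression table. They belong to 7 clusters and 13 paralog groups, read from the symbol: hoxb6a is the group 6 gene of the ba cluster and hoxb6b that of the bb cluster. For comparison, 139 other homeobox genes were taken by a symbol pattern, which does not include the TALE, Cdx and ParaHox genes, eve1, vox, vent and ved, given apart. The pattern names chosen families and does not cover every homeobox gene. Among those left out are nanog and pou5f3, which the paper reports in these PGCs.

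The PGCs came from AB strain embryos carrying the kop-egfp-nanos3-3ʹUTR transgene, a reporter driven by a germline promoter with green fluorescence held in PGCs by the nanos3 3ʹUTR, and were picked by that fluorescence at the shield (6 hpf), 3-somite (11 hpf) and prim-5 (24 hpf) stages. Each stage had 3 cells from 1 embryo, named 6_1 to 24_3, each sequenced as its own full-length Smart-seq2 library. The whole embryo was dissociated for the earlier stages, and the trunk alone for 24 hpf, after the embryo had been anaesthetised with tricaine and its head, tail and yolk cut away. A stage is therefore 1 sample. Stage, embryo and this handling cannot be told apart, and no difference was tested.

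Hox genes encode homeodomain transcription factors that give cells along the head-to-tail axis their regional identity. They lie in clusters, and their order along the chromosome matches the order in which they are switched on in the embryo: low-numbered groups act in the hindbrain and anterior trunk, central groups in the trunk and spinal cord, and high-numbered groups in the posterior trunk, tail and fins. PGCs in zebrafish are set aside early by maternally supplied germ plasm, and are known for holding back the programmes of their somatic neighbours while they migrate to the gonad.

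Values are FPKM, fragment counts scaled for transcript length and library size, so they can be set side by side between genes. A gene was called detected in a cell at an FPKM of at least 1. Summed FPKM per cell ranged between 548917 and 613048, and between 5771 (24_1) and 8148 (6_1) genes were detected per cell. Read counts could not be recovered from the values, so the depth behind a single gene is unknown. A value of exactly 0 can also mean that a transcript was present and not captured, and is written as listed at 0. All 9 cells carried germline RNA: dnd1, which protects germline transcripts, lay between 671 and 6955 FPKM, and ddx4, the germline helicase Vasa, between 157 and 740 FPKM.

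Most hox genes were not detected in these PGCs. Of the 48 members, 12 (25%) reached an FPKM of at least 1 in any cell, against 36 of 139 other homeobox genes (25.9%) and 15159 of all genes (47.0%). The other 36 members (75%) were listed at 0 in every cell, as were 72.7% of other homeobox genes and 50.2% of all genes. Taking every gene in every cell, 20 of 432 hox values (4.63%) reached the threshold, against 5.20% for other homeobox genes and 22.1% for all genes. These hox shares rest in part on 1 cell, 24_2. Over the 8 other cells, 7 of 48 hox genes (14.6%) were detected, against 33 of 139 other homeobox genes (23.7%) and 44.7% of all genes, and 11 of 384 hox values (2.86%) reached the threshold, against 5.49% and 22.0%.

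A detected hox gene was seldom seen in a second cell. Of the 12 detected members, 8 were found in 1 cell, 3 in 2 cells and 1, hoxc11b, in 3 or more cells. That 1 member is 2.08% of the hox genes, against 4.32% of other homeobox genes and 28.9% of all genes detected in 3 or more cells. Counted among genes detected in any cell, it is 1 of 12 hox genes. By the same count it was 6 of 36 other homeobox genes and 9329 of 15159 genes in all. No member had a value above 0 and below 1, so any threshold above 0 and up to 1 gave the same 12. The median detected value was 19.3 FPKM for hox genes, 26.7 FPKM for other homeobox genes and 27.3 FPKM for all genes, with hox values from 1.57 FPKM (hoxa3a in 11_3) to 108 FPKM (hoxb5b in 24_2).

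Counted as genes detected in any cell, the members were unevenly spread over the clusters. The 2 clusters that descend from an ancestral hoxb cluster held 8 detected genes among 15 members, and the 5 other clusters held 4 among 33. Over all genes, 47.0% were detected in any cell. In the bb cluster all 4 members were detected (hoxb1b, hoxb5b, hoxb6b and hoxb8b), and in the ba cluster 4 of 11 (hoxb3a, hoxb6a, hoxb7a and hoxb8a). The ca cluster had 2 of 11 detected (hoxc3a and hoxc8a), the cb cluster 1 of 4 (hoxc11b) and the aa cluster 1 of 6 (hoxa3a). Over the 8 cells other than 24_2, the hoxb-derived clusters held 4 of 15 and the other clusters 3 of 33, beside 44.7% of all genes. The bb cluster held 1 of 4 in those cells, since hoxb5b, hoxb6b and hoxb8b were found in 24_2 alone. Taking every gene in each of those 8 cells, the clusters were closer. The threshold was reached by 4 of 120 values (3.33%) in the hoxb-derived clusters and 7 of 264 (2.65%) in the others, beside 22.0% over all genes. None of the 5 members of the ab cluster and none of the 7 of the da cluster was detected.

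By position within the clusters, 11 of 25 members of groups 1 to 8 were detected, while in groups 9 to 13, the genes of the posterior trunk, tail and fins, 1 of 23 was, again hoxc11b. Without 24_2 these counts were 6 of 25 and 1 of 23. Over all genes, 47.0% were detected in any cell, and 44.7% without 24_2. As values over the 8 other cells, 6 of 200 (3.00%) in groups 1 to 8 reached the threshold. In groups 9 to 13 it was 5 of 184 (2.72%), all of them hoxc11b, and over all genes 22.0%. Group 8 had all 3 members detected, each in 24_2 alone, group 7 its single member, group 3 had 3 of 4, group 6 had 2 of 4, and groups 1, 5 and 11 had 1 each. Groups 2, 4, 9, 10, 12 and 13 had none.

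**Figure D1:**
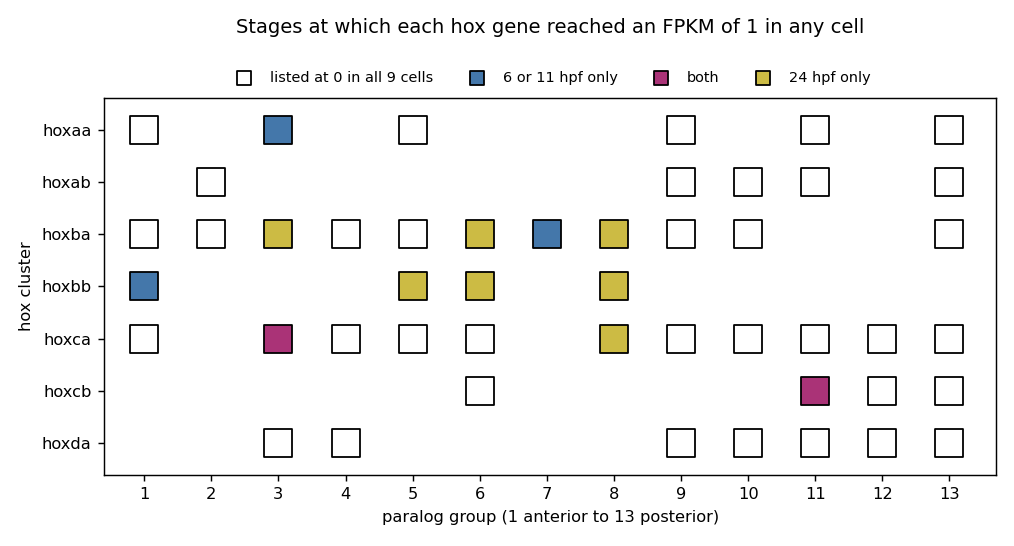
Hox genes laid out by cluster and paralog group, with the cluster down the page and the paralog group from 1 to 13 across. The colour of a square gives the stages at which the gene was detected: all 4 squares of the bb cluster are filled (3 of them from 24_2 alone), the ab and da clusters are empty, and hoxc11b is the sole filled square of groups 9 to 13.

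The members listed at 0 in all 9 cells were hoxa1a, hoxa5a, hoxa9a, hoxa11a and hoxa13a of the aa cluster, and hoxa2b, hoxa9b, hoxa10b, hoxa11b and hoxa13b of the ab cluster. In the ba cluster they were hoxb1a, hoxb2a, hoxb4a, hoxb5a, hoxb9a, hoxb10a and hoxb13a. In the ca cluster they were hoxc1a, hoxc4a, hoxc5a, hoxc6a, hoxc9a, hoxc10a, hoxc11a, hoxc12a and hoxc13a, and in the cb cluster hoxc6b, hoxc12b and hoxc13b. The da cluster added hoxd3a, hoxd4a, hoxd9a, hoxd10a, hoxd11a, hoxd12a and hoxd13a. Among them are hoxb1a and hoxb2a, which pattern hindbrain segments, and all 6 members of group 13, which act at the posterior end of the body and in fins.

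The hox gene found most widely was hoxc11b (ENSDARG00000102631), a posterior member of the cb cluster. It stood at 14.6, 0 and 4.30 FPKM in 6_1, 6_2 and 6_3, at 31.8, 22.9 and 21.3 FPKM in 11_1, 11_2 and 11_3, and at 0, 6.44 and 0 FPKM in 24_1, 24_2 and 24_3. It was thus present in 2 of 3 cells at 6 hpf, in all 3 at 11 hpf and in 1 of 3 at 24 hpf, and its values at 11 hpf lay above every value at the other stages. Among the genes detected in the same cell it ranked at the 52.1st, 44.3rd and 40.8th percentile in 11_1, 11_2 and 11_3, that is, near the middle of expressed genes. At 6 hpf it ranked at the 40.9th percentile in 6_1 and the 10.9th in 6_3, and at 24 hpf at the 17.2nd in 24_2.

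Its cluster neighbours did not share this pattern. The other members of the cb cluster, hoxc6b, hoxc12b and hoxc13b, and its closest paralog hoxc11a were listed at 0 in every cell. The RefSeq annotation places no other hox gene inside hoxc11b.

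The highest hox levels were found at 24 hpf, and nearly all of them in 1 cell, 24_2. That cell had 9 hox genes detected, against 1 in 24_1 and 1 in 24_3, and it held 82.0% of the hox FPKM summed over the 3 cells of its stage. The 9 genes are 18.8% of the members, still below the 22.9% of all genes detected in that cell. In order of level, its members were hoxb5b (ENSDARG00000054030) at 108 FPKM, hoxb8a (ENSDARG00000056027) at 88.8 FPKM, hoxb6a (ENSDARG00000010630) at 59.2 FPKM, hoxb8b (ENSDARG00000054025) at 51.9 FPKM and hoxb6b (ENSDARG00000026513) at 42.7 FPKM. All 5 are central hoxb genes, from groups 5, 6 and 8, which pattern the trunk. They ranked between the 63.2nd (hoxb6b) and the 84.0th percentile (hoxb5b) of genes detected in that cell.

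Of these 5 genes, hoxb5b, hoxb8a, hoxb8b and hoxb6b were listed at 0 in the 8 other cells. The exception was hoxb6a, at 33.3 FPKM in 24_1, 59.2 FPKM in 24_2 and 0 FPKM in 24_3, and listed at 0 in all 6 cells of 6 and 11 hpf. In 24_1 it was the single hox gene detected, at the 45.3rd percentile of that cell.

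Duplicated copies were seen together in 24_2 for groups 6 and 8 but not for group 5. In 24_2, hoxb6a and hoxb6b stood at 59.2 and 42.7 FPKM, and hoxb8a and hoxb8b at 88.8 and 51.9 FPKM. For group 5, hoxb5b stood at 108 FPKM, while its copy hoxb5a was listed at 0. In 24_1, hoxb6a stood at 33.3 FPKM and its copy hoxb6b was listed at 0. Paralogs can share reads, and how multiply mapped reads were divided is not given in the sources used here, so the split between copies is uncertain.

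The remaining genes of 24_2 were from groups 3, 8 and 11 and lay lower. There, hoxc3a (ENSDARG00000070339) stood at 17.2 FPKM, hoxc11b at 6.44 FPKM, hoxc8a (ENSDARG00000070346) at 3.40 FPKM and hoxb3a (ENSDARG00000029263) at 2.33 FPKM. Of these, hoxc8a was listed at 0 in the 8 other cells. The third copy of group 8 was therefore present in the same cell as hoxb8a and hoxb8b, but at the 9.23rd percentile of its detected genes.

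Outside 24_2, the anterior member hoxb3a, a hindbrain gene of group 3, was the single hox gene of 24_3. It stood at 0, 2.33 and 49.8 FPKM in 24_1, 24_2 and 24_3, and was listed at 0 in all 6 cells of 6 and 11 hpf. The cells of 24 hpf thus differed in their leading hox gene, which was hoxb6a in 24_1, hoxb5b in 24_2 and hoxb3a in 24_3.

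**Figure D2:**
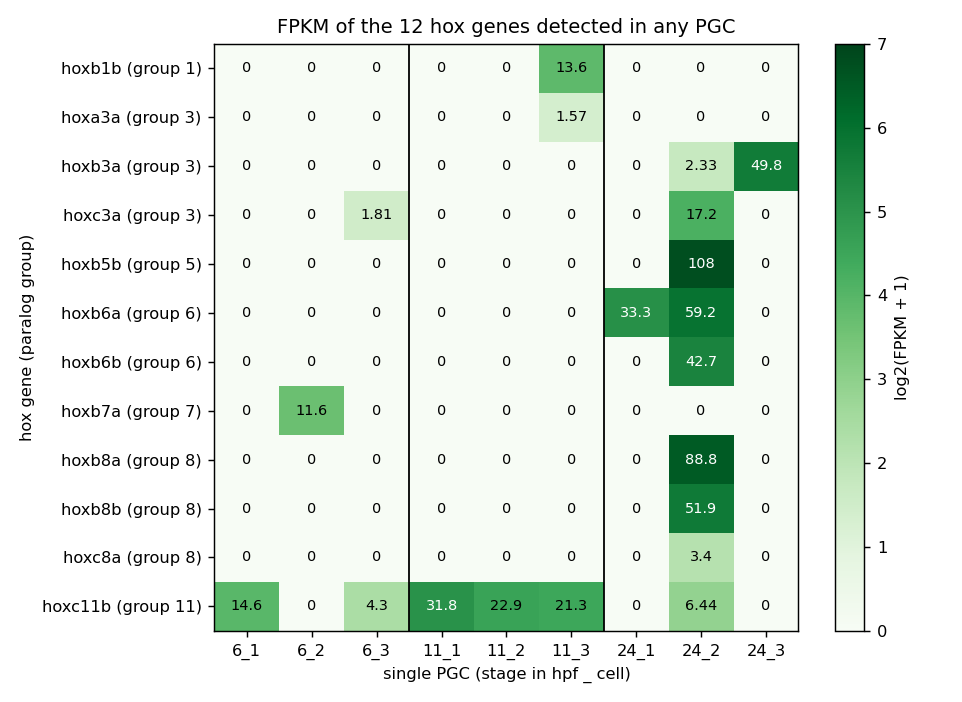
FPKM of the 12 detected hox genes in each of the 9 PGCs (6_1 to 24_3, 3 cells of 1 embryo per stage). The 24_2 cell carries 9 of the 12, led by hoxb5b (108 FPKM) and hoxb8a (88.8 FPKM), while hoxc11b is the one gene present in all 3 cells of 11 hpf.

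At 6 and 11 hpf, 4 members other than hoxc11b were detected, each in 1 cell. In 6_2, hoxb7a (ENSDARG00000056030), a central trunk gene, stood at 11.6 FPKM, and it was listed at 0 in the 8 other cells. In 6_3, hoxc3a stood at 1.81 FPKM, the second of its 2 detections. Both of the others were in 11_3, where hoxb1b (ENSDARG00000054033), a hindbrain gene of group 1, stood at 13.6 FPKM and hoxa3a (ENSDARG00000103862), a group 3 gene, at 1.57 FPKM, and both were listed at 0 in the 8 other cells. Of the 12 detected members, 2 (hoxc3a and hoxc11b) were found at more than 1 stage.

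Some members overlap in the RefSeq annotation, which may bear on single values. In RefSeq (assembly GRCz12tu, used here for the order and overlap of genes and not for coordinates), hoxb3a spans hoxb4a, hoxb5a and hoxb6a, hoxb1b spans hoxb5b and hoxb6b, hoxc3a spans hoxc4a, hoxc5a, hoxc6a, hoxc8a and hoxc9a, hoxa3a spans hoxa5a, and hoxd3a spans hoxd4a. The Smart-seq2 libraries do not record strand, and reads in a nested gene may be credited to the gene around it. The nested pairs did not move together in each cell: hoxb6a was detected without hoxb3a in 24_1 and hoxb3a without hoxb6a in 24_3, and hoxb5b and hoxb6b were detected in 24_2, where hoxb1b was listed at 0. In 24_2, hoxb3a (2.33 FPKM) and the nested hoxb6a (59.2 FPKM) were both detected, as were hoxc3a (17.2 FPKM) and the nested hoxc8a (3.40 FPKM). The paper quantified genes with an Ensembl annotation, and whether its gene models hold the same overlaps was not examined. Whether reads of a nested gene entered the value of the gene around it was not tested.

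Counted per cell, 1, 1 and 2 hox genes were detected in 6_1, 6_2 and 6_3, then 1, 1 and 3 in 11_1, 11_2 and 11_3, and 1, 9 and 1 in 24_1, 24_2 and 24_3. Apart from 24_2, every cell had between 1 and 3. That is 2.08% to 6.25% of the members, where 17.9% to 25.3% of all genes were detected in those cells. In 24_2 it was 18.8%, where 22.9% of all genes were. Summed over all members, hox FPKM came to 14.6, 11.6 and 6.11 in the cells of 6 hpf, to 31.8, 22.9 and 36.5 in those of 11 hpf, and to 33.3, 379 and 49.8 in those of 24 hpf. As a share of a cell's summed FPKM, this was 0.0641% in 24_2 and between 0.00110% (6_3) and 0.00865% (24_3) in the 8 others. Other homeobox genes were also highest in 24_2 within their stage, at 0.00701%, 0.0543% and 0.0179% in 24_1, 24_2 and 24_3. At 6 and 11 hpf they held between 0.0152% (11_3) and 0.0720% (11_1).

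Counted per stage, 3 members (6.25%) were detected at 6 hpf, 3 (6.25%) at 11 hpf and 9 (18.8%) at 24 hpf, of which 7 were found at no earlier stage. Without 24_2 the count at 24 hpf was 2, hoxb6a and hoxb3a. Of the 139 other homeobox genes, 24 (17.3%), 13 (9.35%) and 7 (5.04%) were detected at 6, 11 and 24 hpf. With the TALE, Cdx and ParaHox genes, eve1, vox, vent and ved added, 33, 25 and 18 of 163 were, although the TALE genes by themselves were in the opposite order (4, 7 and 9 of 15). Over all genes the shares were 35.0%, 32.0% and 33.7%.

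**Figure D3:**
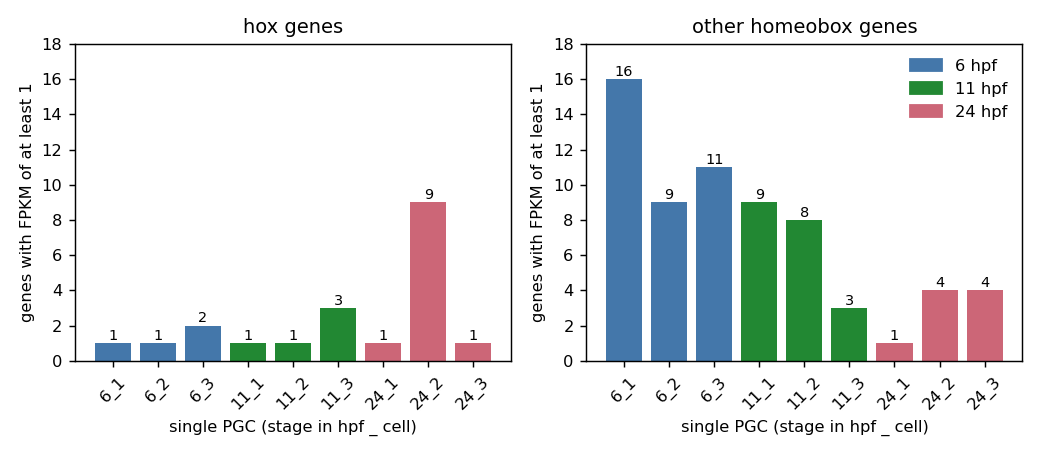
Number of hox genes and of other homeobox genes with an FPKM of at least 1 in each of the 9 PGCs. Hox counts lie between 1 and 3 except for 9 in 24_2, while other homeobox counts lie between 9 and 16 at 6 hpf and between 1 and 4 at 24 hpf. The 9 in 24_2 are 18.8% of hox genes, where 22.9% of all genes were detected.

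The many hox genes of 24_2 were set beside what else was found in that cell alone. Of the 48 members, 5 (10.4%) were detected in 24_2 and in no other cell, against 3 of 139 other homeobox genes (2.16%) and 734 of all genes (2.27%). The total number of genes detected in 24_2, 7376, was above those of 24_1 (5771) and 24_3 (6654) and lay between the cells of 11 hpf (6845 to 7005) and those of 6 hpf (7602 to 8148).

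Finding a gene in a single cell was common at these levels, also outside the hox genes. Among genes whose highest value at 24 hpf lay between 10 FPKM and the hox maximum, 5 of 7 hox genes (71.4%) were detected in 1 cell of that stage, as were 3 of 4 other homeobox genes (75%) and 3046 of 6694 genes in all (45.5%). None of the 7 hox genes was detected in all 3 cells, against 21.3% of all such genes.

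Markers of other cell types were also present in 24_2. Of 16 muscle genes, 5, 6 and 1 were detected in 24_1, 24_2 and 24_3, with summed levels of 569, 2375 and 4.11 FPKM, and in the cells of 6 and 11 hpf the sum lay between 0 and 40.5 FPKM. Over all genes, 17.9%, 22.9% and 20.6% were detected in 24_1, 24_2 and 24_3. The same shares stand beside the neural and yolk counts below. The leading muscle genes were actc1b, a muscle actin, at 214, 1554 and 4.11 FPKM in 24_1, 24_2 and 24_3, myl1, a myosin light chain, at 26.1, 269 and 0 FPKM, and mylpfa, a fast-muscle light chain, at 162, 251 and 0 FPKM. The muscle regulators myod1 and myog were listed at 0 in every cell.

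Neural and yolk genes were found there as well. Of 17 neural genes, 2, 6 and 6 were detected in 24_1, 24_2 and 24_3, summing to 69.4, 285 and 159 FPKM, against 15.0 to 61.3 FPKM at 6 and 11 hpf. They were led by tuba1c, a tubulin, at 125 FPKM in 24_2. Among the regulators on the list, ascl1b stood at 0, 39.3 and 50.0 FPKM in 24_1, 24_2 and 24_3. In 24_2 olig2 stood at 10.9 FPKM, and in 24_3 ascl1a stood at 16.8 FPKM. Others were found at earlier stages too. The gene zic2a stood at 20.1 FPKM in 24_2, at 15.0 FPKM in 6_3 and at 18.8, 38.4 and 16.7 FPKM in 11_1, 11_2 and 11_3. The gene sox11a stood at 30.3 FPKM in 6_2, 31.0 FPKM in 11_1 and 52.6 FPKM in 24_3, and neurog1 at 22.4 FPKM in 11_2 alone. The regulators neurod1, isl1, sox1a and sox1b were listed at 0 in every cell. Of 9 yolk syncytial layer genes, 4 were detected in 24_2, summing to 597 FPKM and led by the apolipoproteins apoa2 (358 FPKM) and apoa1b (139 FPKM), against none in 24_1 and 24_3, whose sums were 0.14 and 0 FPKM. At 6 and 11 hpf this list summed to between 107 and 387 FPKM, from 1 or 2 genes per cell.

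Of the other lists of somatic cell types, none had more than 3 members detected in 24_2, where 22.9% of all genes were detected. It had 1 of 10 endoderm genes (apoa1a, at 228 FPKM), 3 of 14 blood and endothelium genes summing to 23.6 FPKM, 1 of 9 notochord and floor plate genes (shha, at 15.5 FPKM), 3 of 16 epidermis genes summing to 121 FPKM and 0 of 23 genes of mesoderm and mesenchyme. Outside 24_2 those 5 lists had at most 2, 1, 1, 10 and 2 members detected in a cell. The 3 blood and endothelium genes of 24_2, pecam1 (17.8 FPKM), kdrl (4.67 FPKM) and cdh5 (1.13 FPKM), were listed at 0 in every other cell. The germline list had 9 of 13 members detected in 24_2, against 10 to 13 in the other cells, with dnd1 at 1534 FPKM and ddx4 at 245 FPKM in 24_2. The part of RNA from other cell types in the hox values of 24_2 was not tested.

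For differences between stages, the genes taken were those detected in 1 or more cells of the pair of stages. The difference was log2(mean FPKM + 1) of the later stage minus that of the earlier one, a scale that understates the change of low genes. A gene was counted as higher or lower where this was at least 1 in size and the cells of both stages did not overlap.

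Between 11 and 6 hpf, 1 of 5 hox genes was counted as higher, hoxc11b, where 3.68% of all 12999 genes were, and 0 of 5 as lower, where 4.62% were. Its mean was 25.3 FPKM at 11 hpf and 6.29 FPKM at 6 hpf, a log2 difference of 1.85, with a spread of 2.02 between cells (the SDs of log2(FPKM + 1) at both stages, added in quadrature). That difference is of log2 means, and the spread is of log2 values of single cells, so they are on unlike scales. As a difference of mean log2(FPKM + 1) values it was 2.58, above the spread. No cell of 6 hpf reached a cell of 11 hpf.

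Between 24 and 11 hpf, hoxc11b was the 1 of 11 hox genes counted as lower, where 6.97% of 13591 genes were. Its mean was 2.15 FPKM at 24 hpf and 25.3 FPKM at 11 hpf, a log2 difference of -3.07 against a spread of 1.70. None of the 11 was counted as higher, where 5.63% of genes were, because every hox gene that was above its 11 hpf level at 24 hpf was listed at 0 in at least 1 cell of 24 hpf. No fold is given for those genes, which with the exception of hoxc11b were listed at 0 in all cells of at least 1 of the stages compared.

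Between 24 and 6 hpf, none of 10 hox genes was counted as higher, where 6.61% of 14229 genes were, and none as lower, where 9.58% were. The log2 difference of hoxc11b was -1.21 with a spread of 2.60, and its cells overlapped between those stages.

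Hox proteins bind DNA together with TALE homeodomain partners of the Pbx, Meis and Pknox families. Of 15 TALE genes, 11 were detected in any cell, with 4, 7 and 9 detected at 6, 11 and 24 hpf. The shares over all genes were 47.0% in any cell, and 35.0%, 32.0% and 33.7% by stage. One of them, pbx4, the main Pbx factor of the early zebrafish embryo, was detected in every cell. It stood at 12.3, 18.2 and 13.8 FPKM at 6 hpf, at 36.1, 51.5 and 54.0 FPKM at 11 hpf and at 42.4, 50.5 and 32.8 FPKM at 24 hpf. Both later stages lay above 6 hpf in every cell, by a log2 difference of 1.61 for 11 hpf and 1.44 for 24 hpf.

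The other TALE genes varied between cells. The TALE repressor tgif1 lay between 81.7 and 237 FPKM in all 9 cells. The Hox cofactor pknox1.1 stood at 36.3, 36.7 and 0 FPKM at 6 hpf, at 42.1, 0 and 0 FPKM at 11 hpf and at 38.6, 73.7 and 16.8 FPKM at 24 hpf. Its relative meis1b was listed at 0 in all cells of 6 hpf, stood at 0, 18.6 and 0 FPKM at 11 hpf, and at 0, 57.8 and 46.2 FPKM at 24 hpf. The 24_2 cell had 7 TALE genes detected, and the others between 3 and 5. Counting as for the hox genes, pbx4 was the 1 of 7 TALE genes higher at 11 than at 6 hpf and the 1 of 9 higher at 24 than at 6 hpf, with none of 11 between 24 and 11 hpf and none lower in any pair. Over all genes, 3.68%, 6.61% and 5.63% were higher in these pairs.

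Cdx factors act upstream of central and posterior hox genes. Of 5 Cdx and ParaHox genes, 2 were detected in any cell, where 47.0% of all genes were. The leading one, cdx4, stood at 28.3, 0 and 61.0 FPKM at 6 hpf, at 201, 302 and 0 FPKM at 11 hpf and at 0, 0 and 23.8 FPKM at 24 hpf. It was therefore listed at 0 in 24_2, the cell with 9 hox genes. Neither gene was counted as higher or lower between stages.

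Retinoic acid induces anterior hox genes. Of 23 genes for its synthesis, breakdown and receptors, 10 were detected in any cell, with 5, 5 and 8 detected at 6, 11 and 24 hpf. Over all genes, 47.0% were detected in any cell, and 35.0%, 32.0% and 33.7% at those stages. The retinoic acid hydroxylase cyp26a1, which breaks the signal down, stood at 56.9, 72.1 and 100.1 FPKM at 6 hpf, at 131, 1.73 and 0 FPKM at 11 hpf and at 0, 0 and 24.1 FPKM at 24 hpf. The retinaldehyde reductase dhrs3b was listed at 0 in all cells of 6 and 11 hpf and stood at 165, 97.7 and 62.1 FPKM in the cells of 24 hpf. It was thus present in all 3 cells of 24 hpf, while no hox gene was detected in all 3.

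Other genes of the retinoic acid list were less uniform. The retinol dehydrogenase rdh10b stood at 18.7, 61.0 and 24.1 FPKM at 6 hpf, at 36.6, 0 and 0 FPKM at 11 hpf and at 0, 47.6 and 2.78 FPKM at 24 hpf. The receptor gene rarab stood at 25.3, 9.30 and 18.1 FPKM at 6 hpf, at 46.8, 11.0 and 5.51 FPKM at 11 hpf and at 0, 0 and 16.9 FPKM at 24 hpf. In counts, 1 of 6 genes of the list was higher at 11 than at 6 hpf, beside 3.68% of all genes. Between 24 and 11 hpf, 2 of 9 were higher and 1 lower, beside 5.63% and 6.97% of all genes. Between 24 and 6 hpf 2 of 9 were higher and 2 lower, beside 6.61% and 9.58%.

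**Figure D4:**
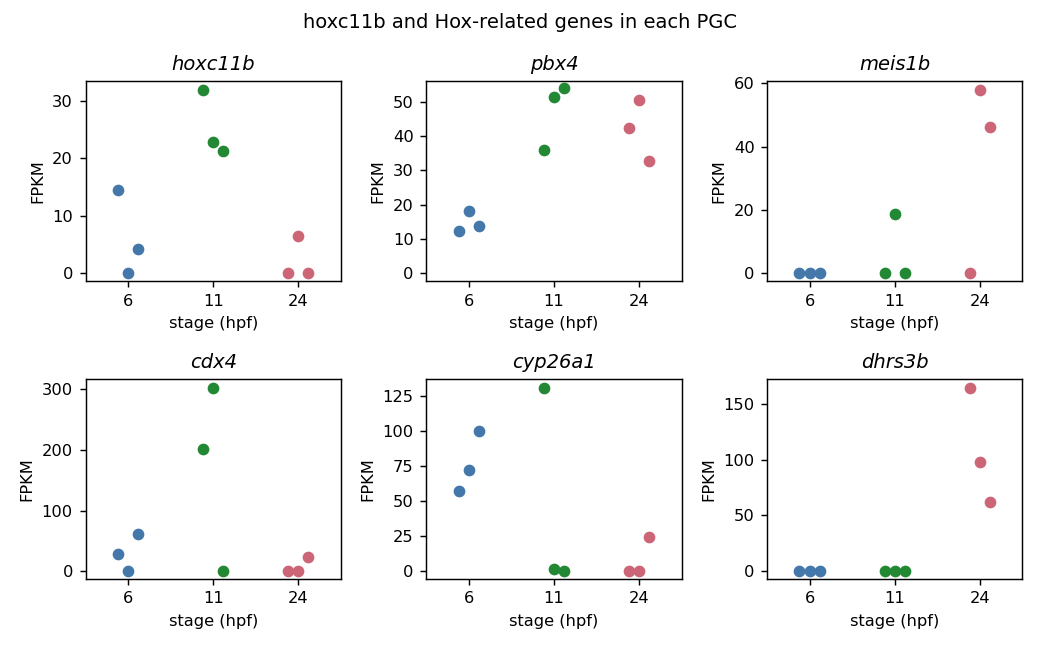
FPKM of hoxc11b, 2 TALE cofactors (pbx4 and meis1b), cdx4 and 2 retinoic acid genes (cyp26a1 and dhrs3b) in each cell, by stage. The points of pbx4 at 11 and 24 hpf all lie above those at 6 hpf, and dhrs3b is above 0 in the 3 cells of 24 hpf alone (165, 97.7 and 62.1 FPKM).

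Genes listed as neighbours of hox clusters were detected in more cells than the hox genes. Of 17 such genes, 14 were detected in any cell, where 47.0% of all genes were, and between 7 and 10 in each cell. By RefSeq gene order, 11 of the 16 symbols lie within 4 genes of a hox gene, and 9 of those 11 were detected. Among the rest, mtx2 lies on a chromosome with no hox gene, and snx11, prr13 and cbx1b are 129, 77 and 44 genes away. For lnpb no distance was obtained. The chromobox gene cbx5, a heterochromatin protein gene beside the ca cluster, stood at 244, 120 and 117 FPKM at 6 hpf, at 262, 173 and 274 FPKM at 11 hpf and at 20.3, 28.1 and 28.0 FPKM at 24 hpf. The proline-rich gene prr13 lay between 37.2 and 138 FPKM in all 9 cells. The dehydrogenase gene hibadhb stood at 15.4, 71.1 and 12.3 FPKM at 6 hpf, at 0, 0 and 40.8 FPKM at 11 hpf and at 142, 88.9 and 163 FPKM at 24 hpf.

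The even-skipped gene eve1, directly beside hoxb13a, stood apart from those genes, being a homeobox gene itself with a role in the ventral and posterior embryo. It stood at 355, 0 and 433 FPKM at 6 hpf, at 172, 388 and 0 FPKM at 11 hpf, and was listed at 0 in all cells of 24 hpf. In counts, the list had 2 of 13 higher and 1 lower between 11 and 6 hpf, beside 3.68% and 4.62% of all genes. It had 2 of 14 higher and 1 lower between 24 and 11 hpf, beside 5.63% and 6.97%, and 2 of 14 higher and 3 lower between 24 and 6 hpf, beside 6.61% and 9.58%. These counts include mtx2 and cbx1b, which do not lie near a hox cluster. The first, mtx2, was lower at 11 than at 6 hpf and higher at 24 than at 11 hpf. The other, cbx1b, was higher at 11 and at 24 than at 6 hpf.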

How the data were processed

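Single PGCs were picked at 6, 11 and 24 hpf, 3 cells of 1 embryo per stage, and amplified with Smart-seq2. The authors mapped the reads to danRer10 and deposited 1 FPKM value for each gene in each cell, with neither counts nor coordinates. The submitters' processing notes name Trimmomatic, HISAT2 2.0.5, StringTie 1.3.3 and DESeq. All 9 value columns were matched to a labelled sample.

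Python 3.11.15 was used with numpy 2.4.6 and pandas 2.3.3, and matplotlib 3.10.9 drew the plots. The calculation of differences was tested on simulated data, built from genes detected in 3 or more cells. The simulation held no values of 0, so it does not cover genes listed at 0 in some cells, as every hox gene was. Detection was an FPKM of at least 1, and log2 values used a pseudocount of 1. Cells of 1 embryo are not replicates of a stage, so no p-value or standard error was computed. Hox members, the 15 gene lists and the rules were chosen with earlier results of these data known. All detected members are named, with full values from an FPKM of 10 or from 2 cells. From the lists, at most 4 genes with an FPKM of at least 10 in 3 or more cells are named by mean, and at most 3 markers per cell type by highest value, besides dnd1 and ddx4. The muscle and neural regulators, the blood and endothelium genes, ta, msx1b, vent and her7 were named after their values were seen. So were the listed cluster neighbours mtx2, cbx1b, snx11 and lnpb. All 48 members matched a RefSeq symbol (GRCz12tu). The symbol pattern for other homeobox genes also took islr2, which is not a homeobox gene and was listed at 0 in every cell. Alternatives were other thresholds, pseudocounts, scalings and filters, and leaving out each cell. Leaving out cells for counts over all 9 cells, and the wider homeobox set, were added after the data were seen.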

Additional observations from a re-analysis of the deposited data

How the results depend on the processing

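Counts of detected hox genes at 6, 11 and 24 hpf depended on single cells more than on the threshold. Asking for at least 2 cells of a stage gave 1, 1 and 2 genes in place of 3, 3 and 9. Leaving out each cell gave 2 to 3 genes at 6 hpf, 1 to 3 at 11 hpf (1 without 11_3) and 2 to 9 at 24 hpf (2 without 24_2). With each cell left out, a choice made after seeing the data, 7 to 12 members were detected in any cell, 4 to 8 in the ba and bb clusters and 6 to 11 in groups 1 to 8, the lowest each time without 24_2. Thresholds of 0, 0.1, 5 and 10 FPKM and TPM scaling kept 2 to 3, 2 to 3 and 7 to 9 genes. The hox share of summed FPKM at 6 hpf was 0.00113% over genes detected in at least 3 cells, against 0.00187% as reported over all genes, and at 11 hpf 0.00684% without the 10 most abundant genes, against 0.00550%. At 24 hpf it was 0.0261%, 0.00704% without 24_2, and 0.000381% over genes detected in at least 3 cells, a filter that keeps hoxc11b as the single hox gene. The count of hox genes higher at 24 than at 11 or 6 hpf was 0, and 0 to 1 with each cell left out (hoxb3a without 24_1, hoxb6a without 24_3).

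The log2 difference of hoxc11b kept its call in each pair under all alternatives run. It ranged from 1.34 to 3.06 for 11 minus 6 hpf (3.06 without 6_1), from -4.72 to -2.64 for 24 minus 11 hpf (-4.72 without 24_2) and from -2.87 to -0.0016 for 24 minus 6 hpf with each cell left out, and came to 1.12, -1.54 and -0.42 with a pseudocount of 10. Scaling by median-of-ratios factors shifted the median difference of all genes by -0.12, -0.10 and -0.21 in these pairs. No paired analysis was possible because a stage is 1 embryo and no test was made. The depth behind single values is unknown, so an FPKM of 0 gives no upper limit.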

Other observations

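Genes of the posterior axis list, which holds tailbud genes together with the homeobox genes vox, vent and ved, differed in number between cells. Of 18 such genes, 8, 5 and 6 were detected in 6_1, 6_2 and 6_3, then 7, 5 and 5 in 11_1, 11_2 and 11_3, and 1, 3 and 2 in 24_1, 24_2 and 24_3. The shares over all genes were 25.3%, 24.1% and 23.6% in the cells of 6 hpf and 21.2%, 21.7% and 21.4% in those of 11 hpf. In 24_1, 24_2 and 24_3 they were 17.9%, 22.9% and 20.6%. The ventral homeobox repressor vox stood at 1712, 613 and 1808 FPKM at 6 hpf, at 136, 228 and 34.0 FPKM at 11 hpf, and was listed at 0 in all cells of 24 hpf. The T-box factor tbx16 stood at 343, 189 and 293 FPKM at 6 hpf, at 264, 216 and 119 FPKM at 11 hpf and at 0, 28.2 and 0.047 FPKM at 24 hpf. The Sp family factor sp5l was listed at 0 in all cells of 6 hpf, and stood at 0, 0 and 150 FPKM at 11 hpf and at 0, 139 and 57.9 FPKM at 24 hpf. A repressor related to vox, ved, was detected in all 9 cells, between 43.0 and 945 FPKM. By the count used for the hox genes, 2 of 11 posterior axis genes were lower at 11 than at 6 hpf, 3 of 8 lower at 24 than at 11 hpf and 3 of 10 lower at 24 than at 6 hpf, with none higher. Over all genes, 4.62%, 6.97% and 9.58% were lower in these pairs. The listed genes counted as lower at 11 than at 6 hpf were vox and vent. At 24 hpf they were vox, tbx16 and her7 against 11 hpf, and vox, vent and tbx16 against 6 hpf.

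Of 11 hindbrain segmentation genes, 6 were detected in any cell, where 47.0% of all genes were. At 6, 11 and 24 hpf, 2, 5 and 1 were detected, where 35.0%, 32.0% and 33.7% of all genes were. By cell they numbered 2, 1 and 2 in the cells of 6 hpf, 3, 2 and 1 in those of 11 hpf and 0, 1 and 0 in those of 24 hpf. The Iroquois gene irx7 stood at 41.1, 38.3 and 39.8 FPKM at 6 hpf, at 47.3, 13.3 and 0 FPKM at 11 hpf, and was listed at 0 at 24 hpf. The homeobox gene gbx1 stood at 20.4, 0 and 25.9 FPKM at 6 hpf, at 38.2, 0 and 0 FPKM at 11 hpf, and was listed at 0 at 24 hpf. Among the 139 other homeobox genes, otx1b, a factor of the anterior brain, stood at 30.8, 100.1 and 74.2 FPKM at 6 hpf, at 100.4, 99.7 and 14.9 FPKM at 11 hpf and at 0.12, 0 and 0 FPKM at 24 hpf. In contrast, six5 stood at 26.3, 49.4 and 0 FPKM at 6 hpf, at 16.4, 42.0 and 0 FPKM at 11 hpf and at 42.7, 92.5 and 32.8 FPKM at 24 hpf. The muscle segment homeobox gene msx3 stood at 49.0, 0 and 0 FPKM at 6 hpf, at 65.9, 6.55 and 39.6 FPKM at 11 hpf, and was listed at 0 at 24 hpf. The 139 genes, which include irx7 and gbx1 but not the TALE genes or vox, had 1 of 30 lower at 11 than at 6 hpf, 2 of 19 lower at 24 than at 11 hpf and 3 of 30 lower at 24 than at 6 hpf, beside the same 4.62%, 6.97% and 9.58% of all genes, with none of the 139 higher.

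The genes eve1 and cdx4, ta of the posterior axis list and msx1b of the other homeobox genes were listed at 0 in 6_2 and 11_3. All were above 0 in the other cells of 6 and 11 hpf. The choice to set these genes together was made after their values were seen, and the share of all genes with this pattern was not counted. Other members of these lists went otherwise. In both 6_2 and 11_3, vox, ved and tbx16 were detected, and msx3 stood at 39.6 FPKM in 11_3.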
